A study of Mus musculus with 12 samples.

Results

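The genes described here are 8 small leucine-rich proteoglycans (SLRPs), namely Dcn (decorin), Bgn (biglycan), Lum (lumican), Fmod (fibromodulin), Ogn (osteoglycin), Prelp, Aspn (asporin) and Omd (osteomodulin). They were chosen by name, and each name matched 1 of the 78298 genes in the deposited tables. RNA came from C2C12 cells, an established mouse myoblast line, that had differentiated for 14 days on a hydrogel of methacrylated gelatin. Wild-type cells (WT, 6 libraries) were compared with RGECO, C2C12 cells with an added fluorescent calcium sensor, per the labels (6 libraries). Both lines received the same differentiation medium, with 10% inactivated horse serum, 50 ng/ml of the growth factor IGF-1 and 1 mg/ml of aminocaproic acid, an inhibitor of plasmin. The sources used here do not give the promoter that drives the sensor or say whether RGECO is 1 clone.

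SLRPs are secreted proteins built from a row of leucine-rich repeats, which fold into a curved surface that binds collagen. Most carry chondroitin, dermatan or keratan sulfate chains on their N-terminal part. They set the diameter and spacing of collagen fibrils, and several hold growth factors of the TGF-beta family in the matrix. In skeletal muscle, decorin binds myostatin and TGF-beta. Biglycan links to the dystrophin complex and to MuSK, the receptor kinase of the neuromuscular junction. Class I of the family holds Dcn, Bgn and Aspn, class II holds Lum, Fmod, Prelp and Omd, and class III holds Ogn.

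The 11 libraries used held 5881622 to 11926220 estimated counts, with RGECO replicate 5 the shallowest. RGECO replicate 4 held 825 counts in all and 0 counts of any of the 8 genes, and is left out unless all 12 libraries are named. The share of counts from mitochondrially encoded genes ran from 0.204% to 1.68% in WT and from 0.298% to 1.33% in RGECO. That of the nuclear RNA Malat1 ran from 0.156% to 0.898% and from 0.180% to 0.645%. Muscle fibre markers were abundant, at 19242 to 25976 summed CPM (counts scaled to library size with TMM factors) in WT and 21490 to 29686 in RGECO over 10 genes. The labels do not tie replicates to separate cultures, and the p-values therefore rest on a spread between libraries that may be technical. In RNA from whole cultures, fewer cells of a type and less RNA per cell cannot be told apart.

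Of the 8 genes, 7 sit in 3 clusters in GENCODE's mouse annotation of GRCm38. Dcn and Lum are adjacent on chromosome 10, Prelp and Fmod on chromosome 1, and Aspn, Omd and Ogn follow each other on chromosome 13. Bgn is on chromosome X. Promoter sequences from RefSeq (GRCm38.p6), each a window of 300 bases that spans a gene's start, were found for 6 of the 8 genes, Dcn and Lum excepted. Those printed below, 5′ to 3′ on the strand of the gene, belong to the members that fell in RGECO (Bgn, Fmod), to Prelp as the neighbour of Fmod, and to Ogn, whose spread within lines was wide for a gene of its level. Capitals mark matches on either strand to TATAAA (the core of a TATA box), CAGCTG (an E-box of the kind that myogenic factors bind), GGAATG (an element bound by TEAD factors) and GGGCGG (a GC box).
Bgn, chrX:73483351-73483650, strand +: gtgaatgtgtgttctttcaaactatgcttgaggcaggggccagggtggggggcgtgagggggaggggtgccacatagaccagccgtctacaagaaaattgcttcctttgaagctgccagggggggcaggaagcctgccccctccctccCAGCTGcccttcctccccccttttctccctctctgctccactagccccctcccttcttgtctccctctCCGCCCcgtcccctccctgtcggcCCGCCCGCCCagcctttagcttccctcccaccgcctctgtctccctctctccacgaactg
Fmod, chr1:134037004-134037303, strand +: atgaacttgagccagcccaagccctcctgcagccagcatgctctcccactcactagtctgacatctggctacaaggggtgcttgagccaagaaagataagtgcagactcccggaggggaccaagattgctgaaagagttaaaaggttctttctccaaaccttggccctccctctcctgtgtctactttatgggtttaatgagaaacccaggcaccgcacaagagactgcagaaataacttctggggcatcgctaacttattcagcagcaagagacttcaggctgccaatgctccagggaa
Prelp, chr1:133921352-133921651, strand -: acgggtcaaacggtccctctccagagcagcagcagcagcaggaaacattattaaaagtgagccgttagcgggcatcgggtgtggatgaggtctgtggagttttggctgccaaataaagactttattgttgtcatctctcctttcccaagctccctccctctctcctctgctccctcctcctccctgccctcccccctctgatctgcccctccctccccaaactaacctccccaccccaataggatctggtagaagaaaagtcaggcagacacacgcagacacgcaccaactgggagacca
Ogn, chr13:49607765-49608064, strand +: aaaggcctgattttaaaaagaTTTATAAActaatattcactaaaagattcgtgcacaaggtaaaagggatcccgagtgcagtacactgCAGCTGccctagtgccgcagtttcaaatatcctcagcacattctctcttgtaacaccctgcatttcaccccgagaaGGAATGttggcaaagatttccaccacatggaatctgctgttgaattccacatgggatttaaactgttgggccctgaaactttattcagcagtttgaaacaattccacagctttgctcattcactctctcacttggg

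The Bgn promoter had a GC content of 63.7%, with 3 matches to GGGCGG, 2 of which overlap, and 1 to CAGCTG. The Ogn promoter, at 42.3% GC, held 2 overlapping matches to TATAAA, 1 to CAGCTG and 1 to GGAATG. The windows of Fmod (51.0% GC) and Prelp (55.3% GC) held none of the 4 motifs. Of all 32841 promoters of this length, 13.6% held TATAAA, 16.3% CAGCTG, 14.7% GGAATG and 35.7% GGGCGG, and the median GC content was 52.7%. Omd and Aspn, whose promoters are not printed because their counts were low, had 37.7% and 31.0% GC, with 2 matches to TATAAA in Aspn. These matches describe letters in a window and say nothing of binding.

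In WT tissue the family was dominated by biglycan. In TPM, a level corrected for library size and transcript length, Bgn stood at 1331 ± 254 (SD, n = 6), or 82.1% ± 3.87 (SD, n = 6) of the summed TPM of the 8 genes. Dcn followed at 137 ± 46.2 TPM and Ogn at 114 ± 72.6 TPM (SD, n = 6). Prelp, which anchors basement membranes to the tissue beneath them, was at 42.2 ± 6.55 TPM (SD, n = 6). A gap then led to Fmod at 2.83 ± 0.70 TPM, Lum at 1.06 ± 0.708, Omd at 0.912 ± 0.619 and Aspn at 0.561 ± 0.519 TPM (SD, n = 6). The family thus fell into 4 abundant and 4 scarce members.

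Neighbours in this order were compared within libraries on log2(TPM + 0.1), by exact sign-flip tests over the 6 WT libraries. Bgn above Dcn by 3.33, Prelp above Fmod by 3.87, Fmod above Lum by 1.58 and Omd above Aspn by 0.84 held in 6 of 6 libraries (two-sided exact p = 0.0312 each, the smallest that 6 libraries allow; adjusted p = 0.0547 over the 7 pairs). None of the 7 pairs passed 0.05 after adjustment. Dcn was above Ogn in 4 of 6 libraries (mean difference 0.48, exact adjusted p = 0.182), Ogn above Prelp in 5 of 6 (1.17, exact adjusted p = 0.131) and Lum above Omd in 2 of 6 (0.18, exact adjusted p = 0.938). These 3 pairs did not differ beyond their spread.

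In RGECO the order was Bgn at 667 ± 85.7 TPM, Dcn at 285 ± 53.7, Ogn at 85.6 ± 40.3 and Prelp at 38.7 ± 13.2 TPM (SD, n = 5). Lum at 0.876 ± 0.887, Omd at 0.475 ± 0.42, Aspn at 0.346 ± 0.318 and Fmod at 0.211 ± 0.192 TPM followed (SD, n = 5). Fmod thus led the scarce genes in WT and came last in RGECO. Bgn above Dcn, Dcn above Ogn and Prelp above Lum held in 5 of 5 libraries (exact sign-flip p = 0.0625 each, the smallest that 5 libraries allow), and the 4 lowest genes did not differ beyond their spread.

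**Figure D1:**
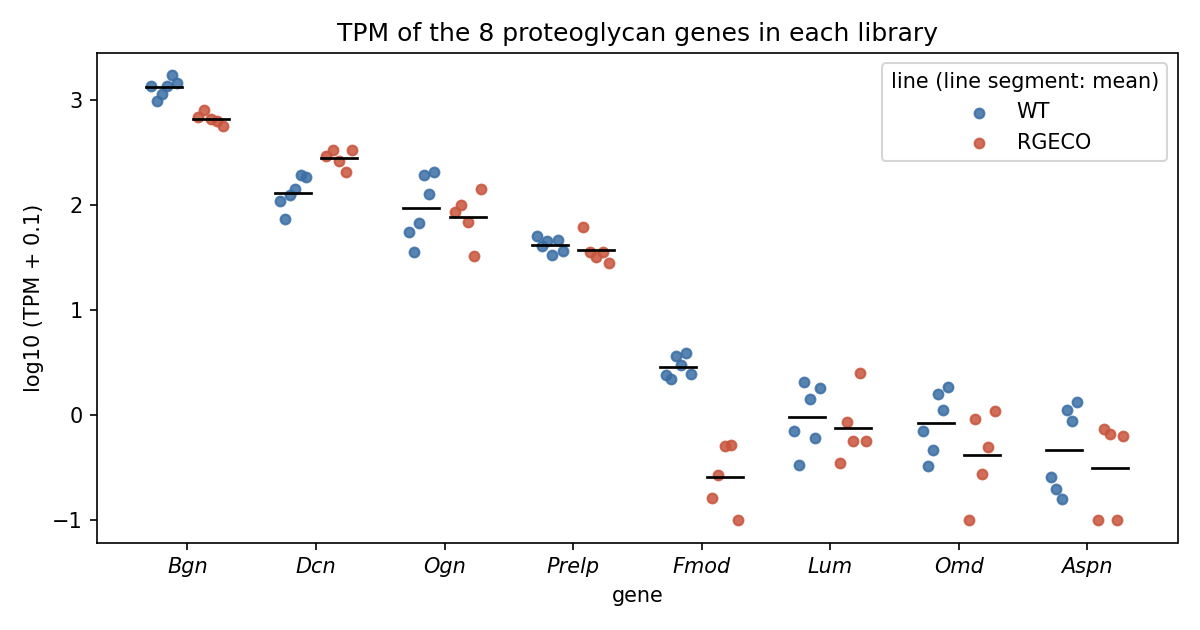
TPM of the 8 genes on a log10 scale with 0.1 added, 1 point per library, WT in blue (6 libraries) and RGECO in red (5 libraries), with a line segment at the mean of the log values. Points of Bgn, Dcn and Fmod do not overlap between the lines, and Ogn, Omd and Aspn spread widely within each line. Of all genes tested, 7.97% had ranges of CPM that did not overlap.

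Between the lines, decorin was higher and biglycan and fibromodulin were lower in RGECO. Of the 8 genes, 6 had enough counts to be tested, and 1 rose and 2 fell. Of all 13318 genes tested, 3.42% rose, 4.93% fell and 8.35% changed in either direction (quasi-likelihood F test of edgeR, adjusted p below 0.05). The other 3 tested members, Ogn, Prelp and Lum, did not pass. The median log2 fold change of the 6 tested members was -0.39, beside -0.01 over all genes tested. This median lies between the values of Lum (-0.32 ± 0.61, SE) and Ogn (-0.46 ± 0.44, SE), so it is no sign of a decrease across the family. Aspn and Omd were too low to be kept, and Fmod was kept through its WT libraries alone.

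Decorin, a class I member with a single chondroitin or dermatan sulfate chain, had a lowest, median and highest value of 122, 174 and 239 CPM in WT. The RGECO libraries were at 326, 419, 331, 256 and 417 CPM (replicates 1, 2, 3, 5 and 6). Every RGECO library was above every WT library. Mean Dcn was 180 ± 41.6 CPM (SD, n = 6) in WT against 350 ± 69.0 CPM (SD, n = 5) in RGECO, and its log2 fold change was 0.96 ± 0.17 (SE; edgeR adjusted p = 0.00193). The lines' ranges of CPM also did not overlap for 7.97% of all genes tested, a share to set beside Bgn and Fmod below as well. With all 12 libraries, the near-empty RGECO replicate 4 included, the call was lost (log2 fold change 0.82, adjusted p = 0.165).

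Biglycan, the class I paralog of decorin, had a lowest, median and highest value of 1753, 2022 and 2398 CPM in WT. RGECO replicates 1, 2, 3, 5 and 6 were at 826, 1154, 884, 1074 and 773 CPM. All were below the lowest WT library. The means were 2042 ± 257 CPM (SD, n = 6) and 942 ± 164 CPM (SD, n = 5), so that Bgn fell by 1.12 ± 0.13 on the log2 scale (SE; edgeR adjusted p = 8.28e-05), or 2.17-fold. It was still the most abundant of the 8 genes in each RGECO library. With all 12 libraries the call was lost (log2 fold change -1.35, adjusted p = 0.410).

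Fibromodulin, a class II member that carries keratan sulfate and binds the same collagen fibrils as lumican, was close to 0 counts in RGECO. The lowest, median and highest WT library had 52, 65.5 and 106 counts (5.05, 6.81 and 8.69 CPM). RGECO replicates 1, 2, 3, 5 and 6 had 1, 4, 10, 6 and 0 counts (0.134, 0.393, 0.960, 1.05 and 0 CPM). The groups did not overlap, and RGECO replicates 1 and 6 were under 3 counts. Fmod fell by 3.85 ± 0.52 on the log2 scale (SE; edgeR adjusted p = 2.66e-04). On summed counts, 428 in WT and 21 in RGECO, its CPM was 15.5-fold higher in WT (95% interval 9.98 to 25.2, which covers counting error only).

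**Figure D2:**
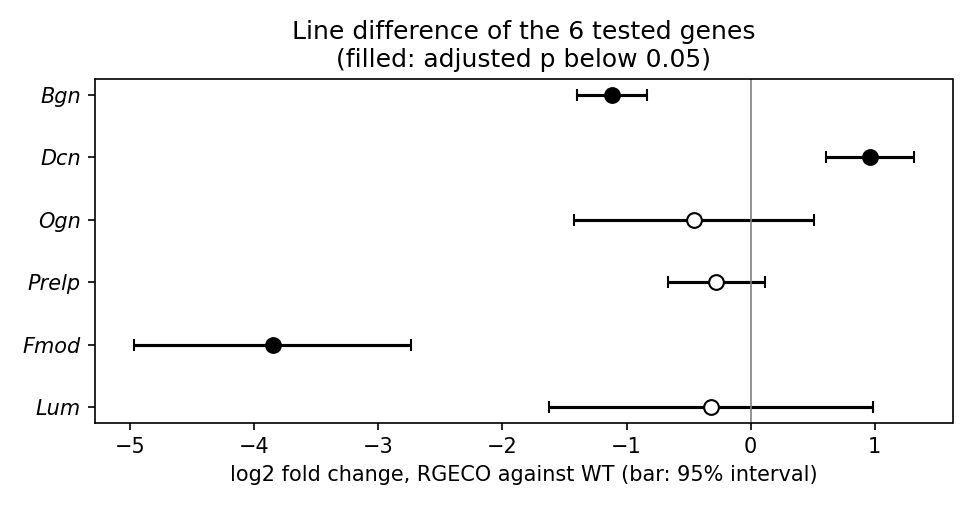
Log2 fold change of the 6 tested genes in RGECO against WT, with 95% intervals from the edgeR fit and filled points past adjusted p 0.05. Dcn lies at 0.96, Bgn at -1.12 and Fmod at -3.85, and the intervals of Ogn, Prelp and Lum include 0.

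Prelp had a lowest, median and highest value of 91.3, 125 and 168 CPM in WT, and 149, 97.9, 89.1, 106 and 76.0 CPM in RGECO replicates 1, 2, 3, 5 and 6. The ranges overlapped widely. Its log2 fold change was -0.28 ± 0.18 (SE, 95% interval -0.67 to 0.12; edgeR adjusted p = 0.424), an interval inside 2-fold in either direction. With a covariate for the mitochondrial share it passed, at -0.42 (edgeR adjusted p = 0.0242).

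Lumican, the class II partner of fibromodulin on collagen fibrils, was low in both lines, with 5 to 35 counts in WT libraries and 3, 14, 9, 27 and 10 counts in RGECO replicates 1, 2, 3, 5 and 6. The CPM ranges overlapped, at 0.558 to 3.63 in WT and 0.402 to 4.73 in RGECO. The log2 fold change was -0.32 ± 0.61 (SE, 95% interval -1.62 to 0.98; edgeR adjusted p = 0.825), and the interval reached past a 2-fold decrease.

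Osteoglycin, the class III member, also known as mimecan, varied more within each line than between the lines. WT replicates 1 to 6 had 127, 90.7, 130, 375, 239 and 361 CPM. RGECO replicates 1, 2, 3, 5 and 6 had 144, 188, 132, 67.0 and 270 CPM. WT replicates 4, 5 and 6 were the highest of their line, RGECO replicate 6 was the highest of its own, and the ranges overlapped. The log2 fold change was -0.46 ± 0.44 (SE, 95% interval -1.42 to 0.51; edgeR adjusted p = 0.607). The SD of log2 CPM was 0.86 within WT and 0.74 within RGECO, higher than in 99.7% and 99.6% of the 894 genes of like level, whose median SD was 0.21 and 0.18. Dcn, by the same measure, stood at the percentiles 82.6 and 89.0 and Bgn at 38.1 and 66.7, among genes of their own level.

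Its neighbours on chromosome 13 were low but showed a like order in WT. Omd, a keratan sulfate proteoglycan known from bone, had 8, 3, 4, 17, 14 and 19 counts in WT replicates 1 to 6 and 0, 9, 2, 4 and 13 in RGECO replicates 1, 2, 3, 5 and 6. Aspn, which has a run of aspartate in place of the chain-bearing N-terminal part, had 3, 2, 1, 18, 16 and 20 counts in WT and 0, 11, 10, 0 and 11 in RGECO. For all 3 genes, WT replicates 4, 5 and 6 were the 3 highest WT libraries. This order was not limited to chromosome 13. Dcn, on chromosome 10, was also highest in WT replicates 4, 5 and 6, at 182, 239 and 213 CPM. Replicates 1, 2 and 3 had 165, 122 and 159 CPM of Dcn. In RGECO, both Dcn and Ogn were highest in replicates 2 and 6 and lowest in replicate 5. In RGECO the orders of Omd and Aspn differed from that of Ogn, with counts of at most 13. The fit without a filter on low counts gave log2 fold changes of -0.86 for Omd and -0.61 for Aspn, neither past the threshold (edgeR adjusted p = 0.531 and 0.665).

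The flanking genes gave mixed orders. Nol8, next to Ogn, was also highest in WT replicates 4, 5 and 6, at 23.2, 20.4 and 22.4 CPM against 18.6, 13.5 and 13.9 CPM in replicates 1, 2 and 3. Ecm2, an SLRP relative next to Aspn, had 3, 5, 19, 19, 33 and 14 counts in WT replicates 1 to 6, so that replicate 3 ranked with the higher libraries. Cenpp, which spans Aspn, Omd and Ogn on the opposite strand, had 7 to 23 counts in WT with replicate 3 the highest. Ogn had 813 to 3809 counts in the same WT libraries. Strand was not stated for the counting, and any exchange of reads between Cenpp and the genes it overlaps was not tested.

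The mitochondrial share of counts moved with Ogn across libraries. It was 0.754%, 0.204%, 0.530%, 1.68%, 1.16% and 1.59% in WT replicates 1 to 6 and 0.509%, 0.726%, 0.625%, 0.298% and 1.33% in RGECO replicates 1, 2, 3, 5 and 6. Its 3 highest WT libraries and the highest, second highest and lowest RGECO libraries were those of Ogn. With this share as a covariate the log2 fold change of Ogn turned to 0.062 ± 0.13 (SE, 95% interval -0.20 to 0.33; edgeR adjusted p = 0.768). With the Malat1 share as a covariate it was 0.15 ± 0.35 (SE, edgeR adjusted p = 0.799). The part that either share has in the spread of Ogn was not tested further. Dcn, Bgn and Fmod kept their calls with either covariate, with log2 fold changes of 1.11, -1.18 and -4.00 for the mitochondrial share.

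**Figure D3:**
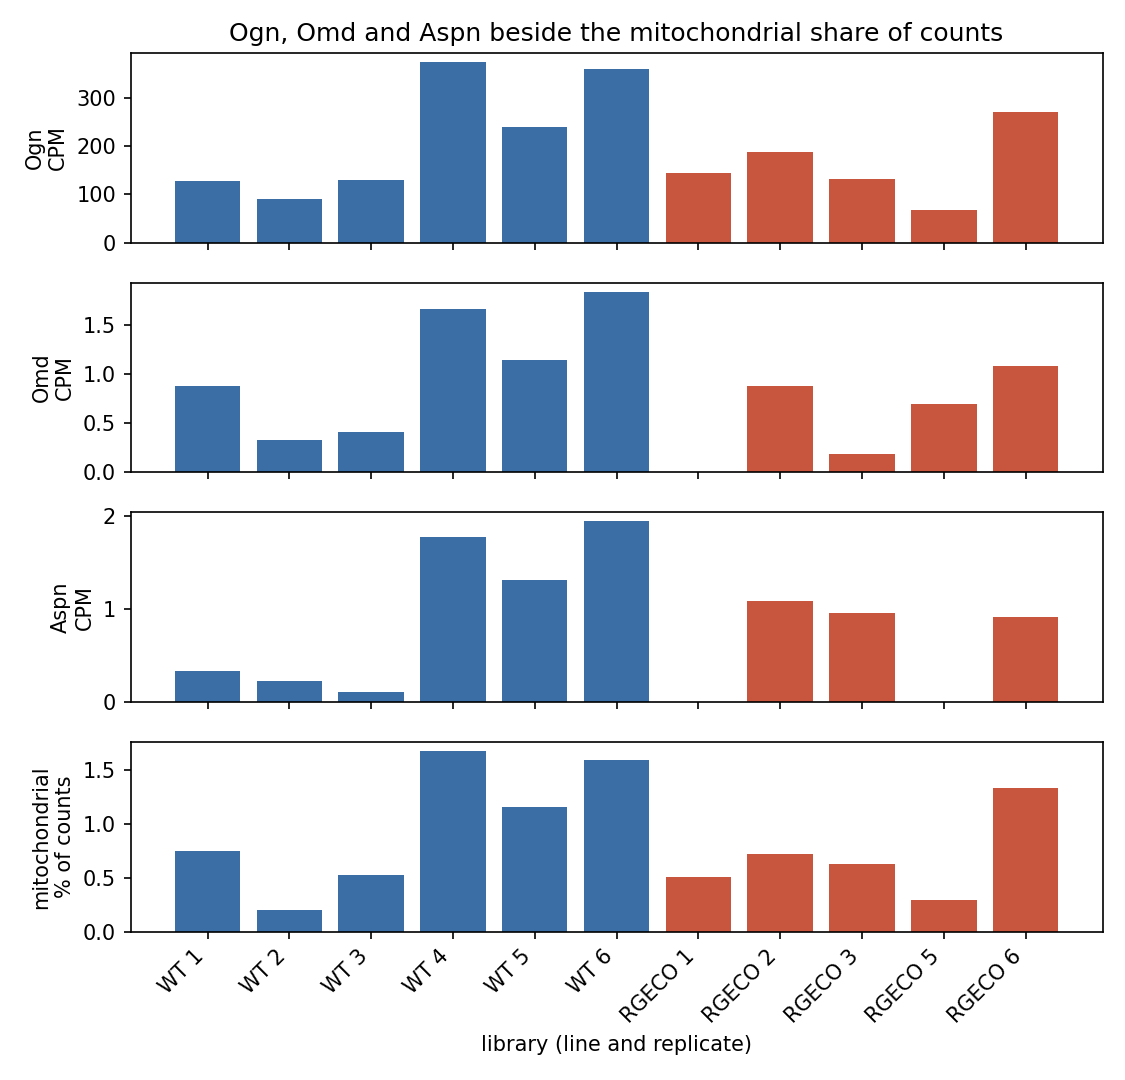
CPM of Ogn, Omd and Aspn and the mitochondrial share of counts (percent), 1 bar per library, WT in blue and RGECO in red. WT replicates 4, 5 and 6 have the 3 tallest WT bars in every panel, and Ogn in RGECO is tallest in replicate 6, at 270 CPM.

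The makeup of the family shifted from biglycan towards decorin. Dcn made up 6.44% to 9.75% of the summed TPM of the 8 genes in WT and 22.6% to 31.2% in RGECO, while Bgn made up 77.1% to 86.6% and 52.6% to 69.5%. Neither gene's ranges overlapped. Ogn, at 3.17% to 11.1% and 3.59% to 13.4%, and Prelp, at 1.91% to 3.60% and 2.61% to 5.44%, overlapped between the lines. The summed TPM was 1137 to 2089 in WT and 912 to 1266 in RGECO. Because the shares add up, a lower share of Bgn raises the others.

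Ratios of genes within a library do not depend on how libraries are scaled, and 4 of them were tested by exact permutation (two-sided, 462 assignments of the 11 libraries). For each molecule of Dcn RNA there were 7.90 to 13.4 of Bgn in WT and 1.68 to 3.07 in RGECO. The log2 ratio of Dcn to Bgn averaged -3.33 in WT (SD 0.300, n = 6) against -1.24 in RGECO (SD 0.313, n = 5), a difference of 2.09 (exact permutation p = 0.00216, the smallest possible; adjusted p = 0.00289 over the 4 ratios). The ranges of this ratio did not overlap. By TPM, Dcn was already higher and Bgn lower in every RGECO library than in any WT library. The ratio therefore had to separate, and its p-value is no support beyond the 2 genes' own values.

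For the chromosome 1 neighbours Fmod and Prelp the ranges did not overlap either. Prelp was 11.1 to 21.1 times Fmod in WT and 63.9 to 375 times in RGECO, on TPM with 0.1 added. Where Fmod had 0 or 1 count, this ratio depends on the 0.1. The log2 ratio of Fmod to Prelp differed by -3.30 (exact permutation p = 0.00216, adjusted p = 0.00289). Fmod passed the filter on low counts through its WT libraries alone, where it was high, which limits what this p-value adds. The chromosome 10 neighbours Dcn and Lum did not pass, with a difference in log2 ratio of 1.44 (exact permutation p = 0.0671, adjusted p = 0.0671). Without RGECO replicate 5 that difference was 1.99 (exact permutation adjusted p = 0.00952), and without WT replicate 5 it was 1.69 (exact permutation adjusted p = 0.0476).

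Decorin was also set against Col1a1, a chain of the collagen fibrils it coats. There was 0.186 to 0.491 Dcn per Col1a1 by TPM in WT and 1.5 to 4.50 in RGECO. All 6 WT libraries thus had more Col1a1 than Dcn, and all 5 RGECO libraries had more Dcn than Col1a1. The log2 ratio differed by 3.01 (exact permutation p = 0.00216, adjusted p = 0.00289). By TPM, Col1a1 was lower and Dcn higher in every RGECO library than in any WT library. This p-value therefore adds no separate support either.

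**Figure D4:**
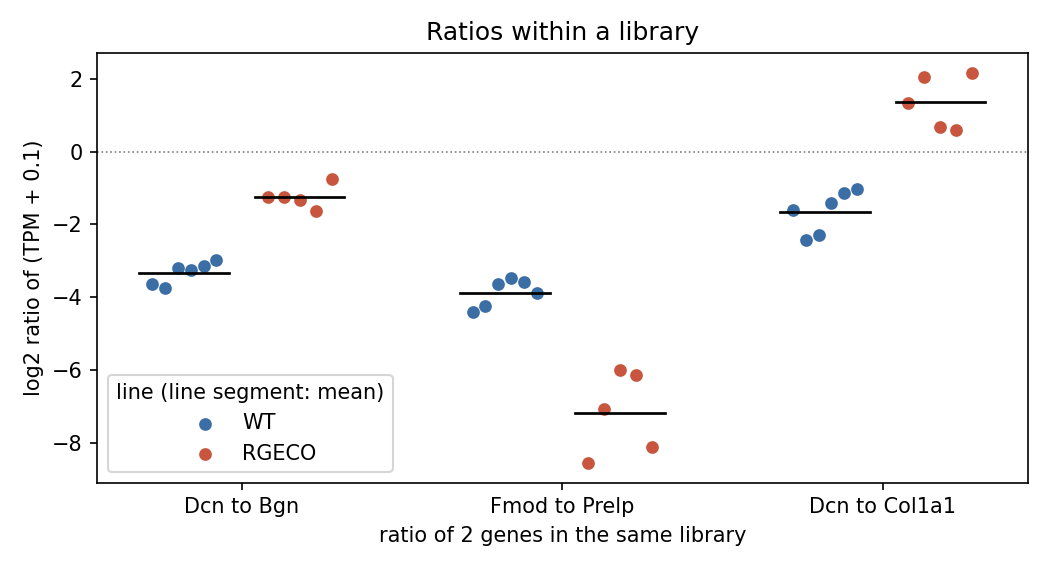
Log2 ratio of the TPM of 2 genes in the same library, with 0.1 added to each, 1 point per library and a line segment at the mean, WT in blue and RGECO in red. The lines do not overlap in any of the 3 ratios drawn, and Dcn to Col1a1 is below 0 in every WT library and above 0 in every RGECO library. Dcn to Lum, the other tested ratio, overlaps between the lines and is not drawn.

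Other genes of the family ranged widely in level. Podnl1 was at 51.8 ± 12.8 CPM in WT (SD, n = 6) and 37.0 ± 11.1 CPM in RGECO (SD, n = 5), and Tsku at 15.5 ± 2.57 and 10.6 ± 3.81 CPM. Of 9 relatives, Kera, Epyc, Chad and Nyx had 0 counts in all 11 libraries, and 4 were tested, with 0 past the threshold in edgeR and 2 of them, Podnl1 and Tsku, at an unadjusted p under 0.05. DESeq2 also called 0, while 2 fell with the mitochondrial share as a covariate and 1 with that of Malat1. The 4 tested genes were Podnl1 at a log2 fold change of -0.49, Tsku at -0.56, Podn at -0.80 and Ecm2 at -0.09 (adjusted p = 0.165, 0.156, 0.371 and 0.950). Optc, which lies beside Prelp, had 15 counts in WT and 1 in RGECO.

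The collagens that SLRPs bind were mostly lower in RGECO. Of 12 fibril-forming, fibril-surface and type VI chains, 7 fell and 0 rose, where 4.93% of all genes tested fell and 3.42% rose. Their median log2 fold change was -0.77, beside -0.01 over all genes. The largest changes were Col1a1 at -1.98, the type VI chains Col6a2 at -1.64 and Col6a1 at -1.59, and Col12a1, which sits on fibril surfaces, at -1.33 (edgeR adjusted p = 7.18e-05, 8.08e-05, 2.13e-05 and 2.13e-05). Over the alternatives the number that fell ran from 3, with all 12 libraries, to 10, with the mitochondrial or the Malat1 share as a covariate. Bgn changed in the direction of these chains and Dcn in the other.

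Of 20 tested genes for the linker and the chondroitin or dermatan sulfate chains, 1 rose and 1 fell, a share near the 8.35% called over all genes. With the Malat1 share as a covariate 3 rose and 1 fell. Dse, the epimerase that turns chondroitin into dermatan sulfate, fell by 0.81 ± 0.14 on the log2 scale, with WT at 51.8 ± 7.45 CPM (SD, n = 6) and RGECO at 29.6 ± 4.54 CPM (SD, n = 5; edgeR adjusted p = 0.00179; 0.0802 on log2(TPM + 1)). Fam20b, the xylose kinase of the linker, rose by 0.34 (edgeR adjusted p = 0.0432). This call was lost in 8 of the 11 fits that each left out 1 library (adjusted p up to 0.0910). On log2(TPM + 1) Fam20b did not pass either (limma adjusted p = 0.142). Xylt1, a xylosyltransferase that starts the chain, had 0 counts in all 11 libraries, and its paralog Xylt2 was at 25.6 CPM in WT and 26.8 CPM in RGECO.

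Of 7 tested genes for keratan sulfate and tyrosine sulfation, 2 rose and 0 fell, beside 3.42% and 4.93% of all genes tested. The galactosyltransferase B4galt4 rose by 1.05 ± 0.13 on the log2 scale, with 28.6 ± 5.20 CPM (SD, n = 6) in WT against 59.2 ± 2.71 CPM (SD, n = 5) in RGECO (SE; edgeR adjusted p = 1.27e-04). The sulfotransferase Chst1, which adds sulfate to keratan chains, rose by 0.65 ± 0.14 (SE; edgeR adjusted p = 0.00931). Fmod, a carrier of such chains, fell in the same libraries.

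Among 8 tested proteases with SLRP core proteins or propeptides among their substrates, 2 rose and 2 fell. Over all genes tested, 3.42% rose and 4.93% fell. Mmp2, a gelatinase, was at -1.12 and the membrane protease Mmp14 at -0.52 (adjusted p = 2.83e-04 and 0.0111), while the aggrecanases Adamts1 and Adamts5 were at 0.46 and 0.45 (edgeR adjusted p = 0.00705 and 0.0180). The call of Adamts5 was lost without RGECO replicate 3 (adjusted p = 0.0522), and Mmp14 and Adamts5 did not pass on log2(TPM + 1), where limma gave adjusted p = 0.0905 and 0.118. Bmp1, which removes the propeptide of biglycan, was at 0.10 (adjusted p = 0.650).

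Of 16 tested receptors and growth factors with known SLRP binding, 1 rose and 2 fell, where 3.42% of all genes tested rose and 4.93% fell. Egfr, a receptor that decorin binds, fell by 1.18 ± 0.16 on the log2 scale, with WT at 40.8 ± 3.98 CPM (SD, n = 6) and RGECO at 18.03 ± 4.93 CPM (SD, n = 5; edgeR adjusted p = 3.23e-04). Ccn2, which decorin binds, was at 0.47 and the receptor Tgfbr2 at -0.40 (edgeR adjusted p = 0.0268 and 0.0202). Each call was lost in 4 of the 11 fits that left out 1 library (adjusted p up to 0.0776 and 0.0812). Neither gene passed on log2(TPM + 1), where limma gave adjusted p = 0.0785 for Ccn2 and 0.281 for Tgfbr2. Tgfb1 at 0.11, Tgfb2 at 0.12 and Tgfb3 at 0.01 did not pass (adjusted p = 0.703, 0.707 and 0.981). Mstn, at 2.01 and 0.784 CPM, did not pass either (log2 fold change -1.32, adjusted p = 0.169).

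Among 5 tested proteoglycans outside the family, 1 rose and 1 fell, beside 3.42% and 4.93% of all genes tested. Spock2, a testican, was at -1.30 ± 0.22 (SE; edgeR adjusted p = 0.00145). Prg4, or lubricin, was at 0.92 ± 0.25 (SE; edgeR adjusted p = 0.0307). This call was lost in 6 of the 11 fits that left out 1 library (adjusted p up to 0.0774) and on log2(TPM + 1) (limma adjusted p = 0.332). The large proteoglycans Vcan at 0.15, Hspg2 (perlecan, which Prelp binds) at 0.47 and Agrn at 0.10 did not pass (adjusted p = 0.656, 0.126 and 0.704).

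**Figure D5:**
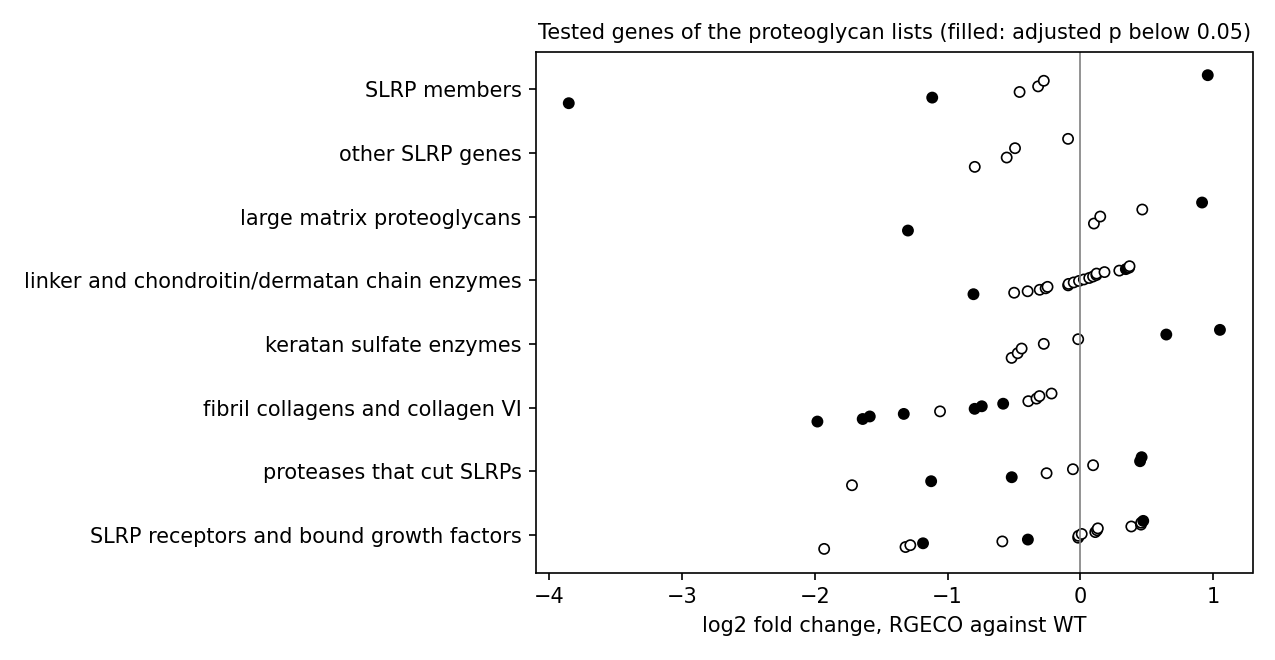
Log2 fold change in RGECO against WT of each tested gene in the 8 SLRP-related lists, 1 point per gene, filled where adjusted p was below 0.05. The 12 collagen genes all lie below 0, with 7 filled, and the tested SLRP members reach from -3.85 to 0.96.

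Markers of other cell types were given as summed CPM, and their part in these differences was not tested. The 12 fibroblast and fibro-adipogenic markers summed to 824 to 1019 CPM in WT and 1068 to 1302 in RGECO. The higher sum came from Ly6a, which rose from a mean of 315 CPM in WT to 610 CPM in RGECO. Pdgfrb fell from 88.5 to 29.4 CPM, no other of the 10 tested markers passed, and Dpp4 and Tcf21 were at 0 counts. The 6 tendon markers summed to 28.2 to 55.0 and 18.5 to 28.7 CPM, with Mkx lower and Tnmd and Kera at 0. Most of this sum was Scx, at a mean of 31.4 and 20.1 CPM. The 8 bone markers summed to 64.5 to 69.5 and 37.6 to 56.5 CPM, with Runx2 lower and Ibsp and Sost at 0. Runx2 alone averaged 62.1 and 42.9 CPM, nearly all of this sum. The 6 smooth muscle markers summed to 1576 to 2216 and 1171 to 1703 CPM, with Tagln lower. Most of this sum was Acta2, at a mean of 1351 and 1027 CPM, which did not pass. The 8 myoblast markers summed to 4451 to 7032 and 6217 to 8456 CPM, with Myf5 higher, Myod1 lower and Chodl at 0. Most of this sum was Des, at a mean of 3793 and 5152 CPM, and Itga7, at 1233 and 1615 CPM. Neither of them passed. Pax7, at 24.2 and 33.3 CPM, did not pass either, and Myf5 was at 19.1 and 28.6 CPM. The 6 adipocyte markers summed to 12.2 to 20.4 and 21.2 to 29.4 CPM, and Plin1 and Lep were at 0. This sum was nearly all Pparg, the only one tested, which rose from a mean of 15.2 to 25.3 CPM. Fabp4 was at 0.265 and 0.0777 CPM, and Adipoq and Cidec were lower still. The 8 cartilage markers summed to 36.6 to 54.0 and 33.8 to 54.2 CPM, with Matn1 and Col9a1 at 0. Of these only Sox9 was tested, at a mean of 44.9 and 41.7 CPM. The 6 endothelial markers summed to 1.55 to 4.35 and 1.47 to 3.35 CPM, with Emcn at 0 and only Vwf tested. The 6 macrophage markers summed to 14.3 to 30.3 and 15.6 to 34.5 CPM, with Adgre1 at 0. Of these only Cd68 was tested, at a mean of 20.4 CPM in each line. None of Sox9, Vwf and Cd68 passed the edgeR threshold, and the other markers of these lists were too low to test. Of the 10 fibre markers Myh3 rose and Myh8 fell.

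For each tested member, the 3 genes with the most like profile were found by the root mean square distance between log2 CPM profiles over the 11 libraries, each centred on its own mean. The difference between the lines stays in such profiles, so a like fold change also brings genes near, apart from any shared spread within lines. The median distance is given over 10631 genes, or 10632 for Lum. The nearest genes of Dcn were the fucosidase Fuca2, the heparan sulfatase Sulf1 and Enpp5 (0.17, 0.20 and 0.20, median 0.63). Those of Bgn were the ferritin receptor Scara5, Mmp2 and Arpp21 (0.13, 0.15 and 0.15, median 0.65). Those of Fmod were the chemokine Cxcl12, the receptor Fgfr4 and the cartilage matrix gene Cilp (0.79, 0.81 and 0.92, median 1.96). The profiles nearest to Ogn were Lcorl, the nuclear noncoding RNA Tug1 and Zfp62 (0.18, 0.19 and 0.20, median 0.81), and those nearest to Prelp were Rnf157, the syndecan Sdc3 and Kifc5b (0.13, 0.13 and 0.14, median 0.44). Those nearest to Lum were Col23a1, Fgf7 and Eef1akmt1 (0.60, 0.63 and 0.65, median 0.98), where Lum had only 5 to 35 counts in WT and 3 to 27 in RGECO libraries. No member was among the 3 nearest of another.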

How the data were processed

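Poly(A)-selected RNA was amplified over 14 PCR cycles and read as 50-base pairs (Singular G4), per the labels' protocols. The authors deposited estimated counts per gene, not normalised, and TPM per gene, which the authors corrected for length and library size. File names credit both tables to Salmon. The submitters' processing notes also name STAR, BWA 0.7.12-r1039, bedtools 2.25.0 and, as builds, GRCm39, mm10 and hg19. The sources used here do not give their roles, the annotation release or strandedness, so gene coordinates are printed only with RefSeq promoters. Of the table's gene IDs, 65.8% were in the GRCm38 annotation used for gene order, all 8 members among them.

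After rounding, the estimated counts entered edgeR 4.0.16 under R 4.3.3 (filterByExpr, TMM, robust quasi-likelihood F test), with Benjamini-Hochberg adjustment over all 13318 genes kept, a threshold of 0.05 and 95% intervals from the F statistic. RGECO replicate 4 was below a minimum of 1000000 counts. The floor of 3 counts was 0.252 to 0.510 CPM per library, and counting intervals cover counting error only. The smallest chi-square per gene among 25 within-line library pairs was 7.62, so none was treated as a duplicate. TPM alternatives used limma 3.58.1 and another used DESeq2 1.42.0. The tests were checked on simulated data.

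The members, lists and tests were chosen with earlier results of these data known. All 8 members are described. From each list, the tested genes past the threshold with the largest fold changes (at most 4) are named, and other genes were named after their values were seen. Nearest profiles skip predicted genes and genes under a mean log2 CPM of 2.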

Additional observations from a re-analysis of the deposited data

Results flagged for a closer look

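Lum in RGECO had 1 library far from the rest. RGECO replicate 5, the shallowest of the 11 libraries, was at 4.73 CPM (27 counts) and the other 4 RGECO libraries were at 0.402 to 1.38 CPM. The gap to the nearest library was 0.775 of the whole range, above the 95% critical value of 0.71 for 5 libraries. Without this library the log2 fold change of Lum was -1.13 (edgeR adjusted p = 0.260) in place of -0.32. Of 16 groups examined, chance alone flags about 5%.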

How the results depend on the processing

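The calls of Dcn, Bgn and Fmod held in each of the 11 fits that left out 1 library, in which the numbers of members called, higher and lower were 3, 1 and 2 throughout. They also held with DESeq2, with its size factors, without a filter, on both TPM scales, under the replicate block and with either covariate. TPM moved the median log2 fold change of all genes by 0.11. With all 12 libraries 1 member was called, Fmod, with 0 higher and 1 lower, and 237 genes were higher. Over all genes, DESeq2 called 1674 (753 higher), log2(TPM + 1) called 605 (261 lower), log2(TPM + 0.1) called 587 (257 lower) and log2(TPM + 1) without a filter 258 (140 higher, 118 lower), against 1112 in the main analysis. The mitochondrial covariate gave 3133 (1614 higher, 1519 lower) and the Malat1 covariate 2771 (1395 higher, 1376 lower). The mitochondrial covariate also moved the calls in other lists, for example to 3 lower keratan sulfate enzymes and 4 lower proteases. The cause of these shifts was not tested. Leaving out 1 library gave 785 to 1140 calls, 330 to 478 higher and 455 to 662 lower. Ogn turned from -0.46 to 0.062 with the mitochondrial and to 0.15 with the Malat1 covariate. The difference in the log2 ratio of Dcn to Lum passed with a TPM pseudocount of 1, at 1.26 (exact permutation adjusted p = 0.0216), and ran from 1.15 to 1.99 with 1 library left out. The differences in the other log2 ratios ran from 1.97 to 2.18 (Dcn to Bgn), from 2.81 to 3.21 (Dcn to Col1a1) and from -3.60 to -2.96 (Fmod to Prelp), all past the threshold. With 1 WT library left out, Lum stood above Omd by -0.22 to 0.39. Of 5 same-numbered pairs only number 6 had a correlation of deviations over 0.1 (0.364). The labels do not say whether equal numbers mark a shared batch, and these correlations cannot settle it. The replicate block called 781 genes (316 higher, 465 lower) and kept the calls of Dcn, Bgn and Fmod. Of the other named genes, Prg4 (edgeR adjusted p = 0.0656), Fam20b (0.0665) and Ccn2 (0.0818) were not called under this block. Within 5 pairs under this block the ratios were 2.10, -3.22 and 3.06 for Dcn to Bgn, Fmod to Prelp and Dcn to Col1a1 (exact sign-flip adjusted p = 0.0833), where 5 pairs cannot go below p = 0.0625. On shares of counts in place of TPM, Dcn was at 22.4% in RGECO. Depth limits Lum, Omd, Aspn and, in RGECO, Fmod.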
